A study of Mus musculus with 4 samples.

Results

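Zac1 (Plagl1) binding was described on one 10 Mb stretch of mouse chromosome 15, from 70 to 80 Mb. Members were all peaks of the deposited list (mm9) on that chromosome whose midpoint lay at or above 70 Mb and below 80 Mb. This rule uses position alone and gave 221 of 4638 peaks, or 4.76% of the list and 37.4% of the 591 peaks on chromosome 15. The stretch was picked out with its high number of peaks already known, so that number is a description. It is syntenic to parts of human chromosomes 8 and 22.

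The tested material was chromatin enriched with the laboratory's own Zac1 antibody (ChIP, 2 libraries), and its background was input chromatin (2 libraries, no antibody). Both came from Neuro-2A, a mouse neuroblastoma line of Swiss Albino origin, 16 hours after transfection with the plasmid pRK5-Zac1. Zac1 was therefore expressed from a plasmid in every library, input included, and no untransfected cells were analysed here. With a single ChIP count and a single input count for every peak, no spread between replicates could be measured, and the sources do not say whether both libraries of a group were used. Within all peaks the list holds 388156 ChIP and 20321 input reads, and within the 221 peaks 21064 and 1178.

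Zac1 is a zinc finger transcription factor that binds GC-rich DNA. Its gene is imprinted and expressed from the paternal copy, and the protein is known for restraining cell growth and for acting on other imprinted genes. In a ChIP library, reads on the forward strand pile up on one side of a bound site and reads on the reverse strand on the other. A site with many reads on both strands is therefore better supported than one with many reads on a single strand. Peaks were not assigned to genes, because the only gene table at hand is on another assembly than mm9.

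Zac1 peaks filled the distal part of the stretch and were nearly missing from its start. No peak lay between 70 and 71.5 Mb, and the first, at 71936454 to 71936483, came 5065647 bp after its nearest proximal neighbour. The interval from 70 to 75 Mb held 41 peaks (18.6%), against 180 (81.4%) from 75 to 80 Mb. The last 2 Mb, from 78 Mb on, held 114 peaks (51.6%), and the 0.5 Mb from 78.5 to 79 Mb alone held 44. The stretch from 77 to 77.5 Mb had 3 peaks, so the density was not continuous. ChIP reads per peak varied much less than peak number along the stretch. Their median was 82 from 70 to 75 Mb, 95 from 75 to 77 Mb, 77 from 77 to 78 Mb and 87 from 78 to 80 Mb.

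**Figure D1:**
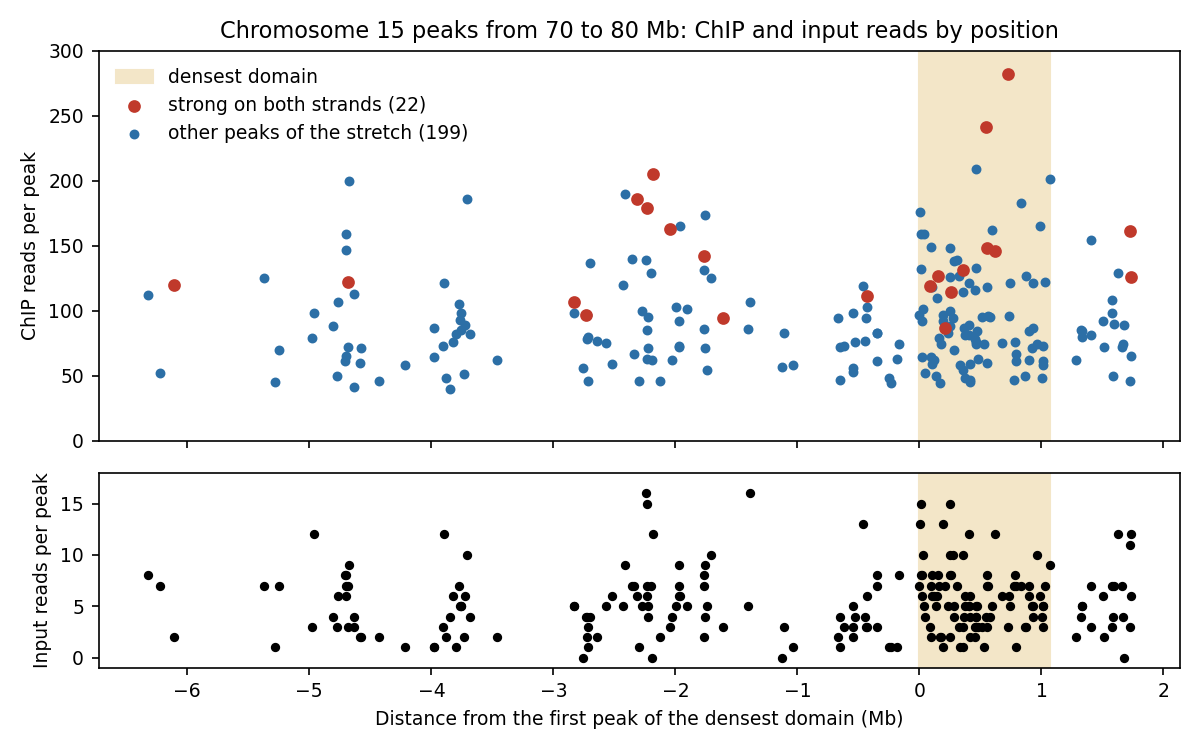
ChIP reads (upper panel) and input reads (lower panel) of each of the 221 peaks against distance in Mb from the first peak of the densest domain, which is shaded; red points are the sites strong on both strands (28 or more reads in each strand's fullest window). Peaks bunch in separate groups, and the shaded domain of 90 peaks holds the 2 highest ChIP counts, 282 and 241.

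The 80 Mb limit cuts through a group of neighbouring peaks. The last peak inside, at 79990400 to 79990493, had 65 ChIP and 6 input reads. The first outside, at 80000735 to 80000763, had 67 and 4 reads and lay 10303 bp further on. At the other limit, the first peak inside had 112 ChIP and 8 input reads, and the nearest peak outside, at 66870678 to 66870964, had 109 and 8.

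The peaks of the stretch held more ChIP reads than the rest of the list, and more input reads as well. ChIP reads per peak had a median of 86 (interquartile range 64 to 119, lowest 40, highest 282) in the 221 peaks and of 74 (59 to 96) in the 4417 other peaks. The 95% interval of the median was 81 to 92 in the stretch and 74 to 75 elsewhere. This interval takes peaks as independent, although they lie in groups and share libraries, so it is a description only. Input reads per peak averaged 5.33 in the stretch and 4.33 elsewhere, with medians of 5 and 4. The mean ChIP count was thus 1.15 times, and the mean input count 1.23 times, that of the other peaks. The part of the higher input in the higher ChIP counts was not tested. The other 370 peaks of chromosome 15 stood close by, with a median of 83 ChIP reads and 5.62 input reads per peak. The excess over the whole list therefore cannot be called particular to this stretch.

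**Figure D2:**
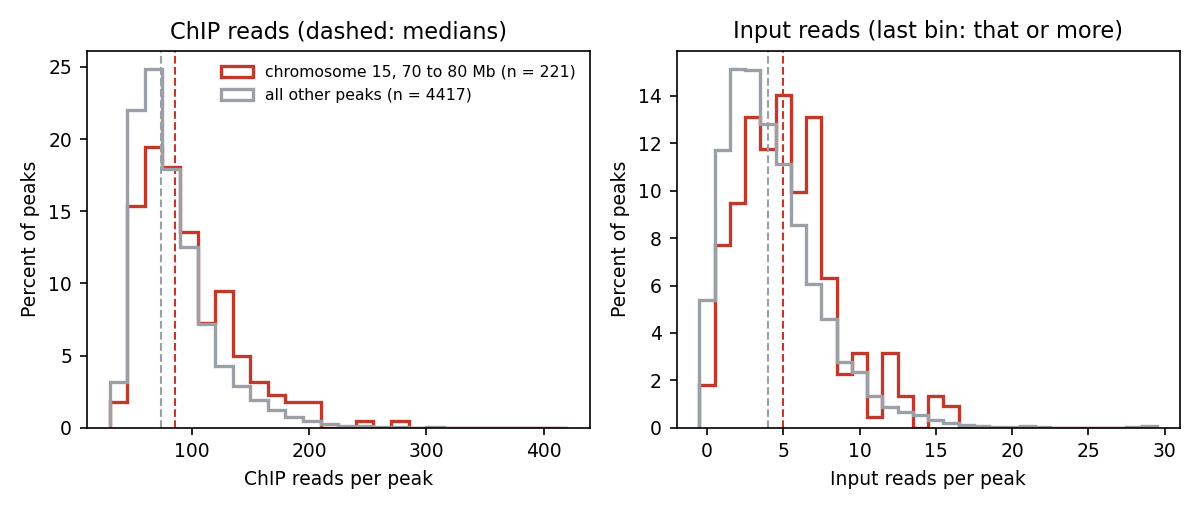
Distribution of ChIP reads (left) and input reads (right) per peak, in percent of peaks, for the 221 peaks of the stretch (red) and the 4417 other peaks (grey), with medians dashed. The red ChIP curve lies to the right, with medians of 86 and 74, and the input curve is shifted too, with medians of 5 and 4.

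Pooled over peaks, enrichment over input was no higher in the stretch than in all other peaks. Input reads were scaled by 0.696, the constant that the deposited fold values imply. All ChIP reads over all scaled input reads gave 25.7-fold in the stretch (95% exact interval 24.2 to 27.3, counting error only) and 27.5-fold (27.1 to 27.95) in the other peaks. It was 24.5-fold (23.5 to 25.7) in the rest of chromosome 15, 26.7-fold (25.2 to 28.4) from 130 to 140 Mb of chromosome 4 and 22.4-fold (21.2 to 23.7) from 120 to 130 Mb of chromosome 8, the other dense stretches of the list. Among the 217 members with at least 1 input read, the fold of a single peak ran from 9.61 to 139.3 with a median of 26.6, against a median of 29.2 in 4179 other peaks. By the authors' own fold, the largest log2 value of any window, members stood slightly higher, with a median of 5.04 against 4.95 in other peaks. In the rest of chromosome 15 that median was 5. The better-ranked 50% of the list held 57.9% of members, 49.6% of other peaks and 51.4% of the rest of chromosome 15. Because a region had to be enriched to be listed at all, enrichment itself was not tested.

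Few single peaks could be told from the fold of the whole list, 27.4. The exact 95% interval lay wholly above it in 4 of 221 members, where 2.54% of all peaks did so, and wholly below it in 10 members, where 4.44% did so. Both shares are near those of the whole list and are no result about the stretch. The 4 above were at 78985907 to 78986601 (282 ChIP and 3 input reads), 78804047 to 78804317 (241 and 4), 76493183 to 76493246 (142 and 2) and 79934228 to 79934303 (89 and 0). Among the 10 below, the lowest fold was 9.61 (5.65 to 17.4), at 76867284 to 76867635, with 107 ChIP reads against 16 input reads. That is also the highest input count of the stretch, shared with the peak at 76020645 to 76020782 (139 ChIP reads, 12.5-fold, 7.42 to 22.4).

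Input reads were absent from 4 members (1.81%) and from 238 of the other peaks (5.39%). The share was 2.70% in the rest of chromosome 15, 2.92% on chromosome 4 from 130 to 140 Mb and 1.69% on chromosome 8 from 120 to 130 Mb, so it is not particular to the stretch. With no input read a fold has only a lower limit, given here as the lower end of the exact 95% interval. This was 21.1-fold at 75500731 to 75500804 (56 ChIP reads) and 23.4-fold at 76070970 to 76071040 (62 reads). It was 21.5-fold at 77136618 to 77136708 (57 reads) and 33.9-fold at 79934228 to 79934303 (89 reads). These 4 peaks lay far apart, and none was in the densest domain.

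Some sites had many reads on both strands. A site was called strong when the fullest forward window and the fullest reverse window each held 28 or more ChIP reads. Whether these windows faced each other was not checked. This was so in 22 of 221 members (9.95%, 95% exact interval 6.34 to 14.7), where 4.55% of all 4638 peaks reached that limit. Without the members the share was 189 of 4417 (4.28%, 3.70 to 4.92). The rest of chromosome 15 had 38 of 370 (10.3%, 7.37 to 13.8), and its part from 80 Mb on 34 of 336 (10.1%, 7.11 to 13.9), with intervals that overlap that of the stretch. On chromosome 4 from 130 to 140 Mb the share was 10 of 240 (4.17%, 2.02 to 7.53), and on chromosome 8 from 120 to 130 Mb 15 of 237 (6.33%, 3.59 to 10.2). Peaks share their libraries and lie in groups, so they are not replicates and no test was made between these shares. The limit of 28 reads was chosen in an earlier look at these data. At 24 reads the stretch had 48 sites (21.7%) and the other peaks 555 (12.6%), and at 32 reads 11 (4.98%) and 69 (1.56%). At 40 reads there were 0 of 221 members, which allows a share of up to 1.36% by a limit of 3 counts and 1.66% by the exact interval, and 10 other peaks (0.226%, 0.109 to 0.416), so no difference was detectable at that limit.

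The list itself begins at 16 reads on the weaker strand. That minimum was met exactly by 36 members (16.3%) and by 987 of the other peaks (22.3%). Up to 18 reads were seen in 39.4% of members and in 53.4% of other peaks. The rest of chromosome 15 had 16.5% at the minimum and 40.3% at up to 18 reads, close to the members. Just below the limit for strong sites, 3 members had 27 reads on the weaker strand, and just at it 5 had 28. The highest weaker-strand window of the stretch had 39 reads, at 72152001 to 72152128, where the reverse window had 42. This site, the third peak of the stretch, ranked 835 and was 86.2-fold enriched (23.3 to 719.9), with 120 reads in ChIP against 2 in input.

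**Figure D3:**
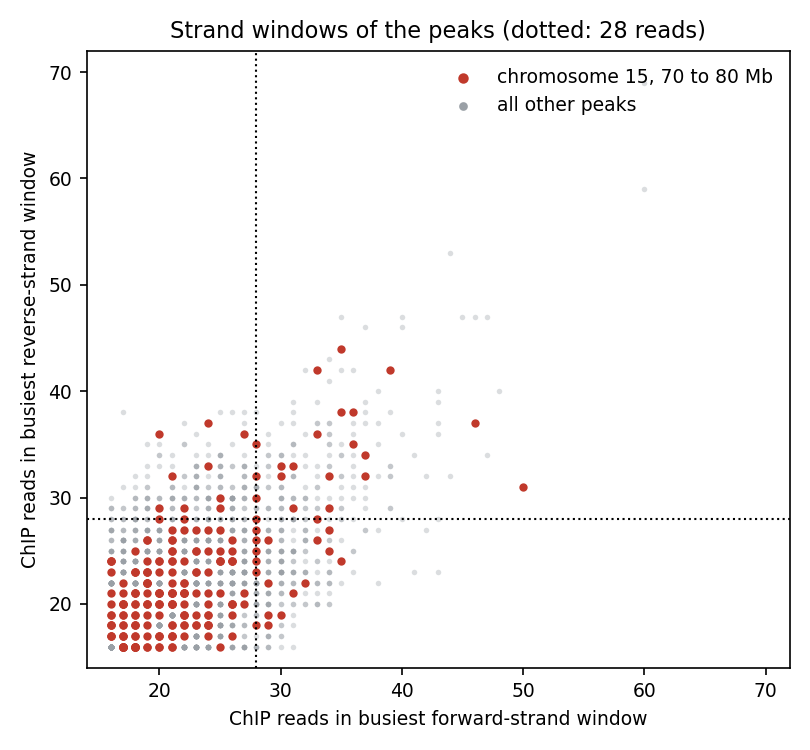
ChIP reads in the fullest forward-strand window (x axis) and the fullest reverse-strand window (y axis) for the 221 peaks of the stretch (red) and the other peaks (grey); dotted lines mark 28 reads. The 22 strong members lie in the upper right corner, and the highest single-strand windows of the stretch, 50 forward and 44 reverse reads, belong to different peaks.

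The site with the best rank in the stretch was also its site with the most reads. At 78985907 to 78986601, 282 ChIP reads (137 forward, 145 reverse) stood against 3 input reads, a 135.0-fold excess (45.7 to 658.7) with an authors' rank of 4. It spanned 695 bp, and its strand summits were in inverted order, 110 bp apart. The second by ChIP reads, at 78804047 to 78804317, had 133 forward and 108 reverse reads against 4 input reads (86.6-fold, 33.4 to 320.2). The third, at 78724313 to 78724824, had 98 and 111 reads against 5 input reads (60.0-fold, 25.3 to 186.9). Its length of 512 bp equals the distance between its strand summits. Its busiest windows held 18 and 19 reads, under the limit for a strong site.

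Several narrow sites ranked well with fewer reads. The peak at 76078385 to 76078517 had 205 ChIP reads, 35 and 44 of them in the busiest forward and reverse windows, and rank 8. Its region also held 12 input reads, so its fold over the region was 24.5 (13.7 to 48.3). At 79989075 to 79989137 (rank 17), 161 ChIP reads faced 11 input reads, and at 73577358 to 73577422 (rank 50), 122 faced 7. The forward window of that last peak held 50 reads, the most on one strand in the stretch, and its reverse window 31. At 79131627 to 79131683 (rank 38), 127 ChIP reads faced 3 input reads, but its forward window of 27 reads left it just under the limit for a strong site.

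Most of the best ranked members were strong sites, and some were among those with the most ChIP reads. Of the 10 best ranked members, 8 were strong on both strands and 3 were among the 10 with the most ChIP reads. Both groups of 10 come from 221 members, and their overlap was not tested. The median rank was 551 in the 22 strong members and 2044 in the other 199, and 216 and 2423.5 in strong and other peaks outside the stretch. Rank and the limit for strong sites both use ChIP reads in windows of the same peak, so the link between them is a description. The 10 with the most ChIP reads included 4 strong sites and 5 peaks of 200 bp or longer. Over all 221 members, 22 (9.95%) were strong and 42 (19.0%) were that long. In the authors' deposited table, the rank follows the largest window log2 fold (Spearman's rho -0.9995 over the 221 peaks) and so depends on input reads in that window. Over the same peaks, rho between rank and the weaker-strand window was -0.54. These peaks share both libraries and the same scaling, so the values describe the list only.

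Of the 22 strong members, 6 (27.3%) had a rank past 2000, against 101 of the other 199 members (50.8%). The peak at 79989963 to 79990055 had 28 and 35 reads in its windows but rank 4393, with 126 ChIP and 12 input reads (15.1-fold, 8.34 to 29.97). It lies next to the rank 17 site, and the midpoints of the pair are 903 bp apart. At 78469396 to 78469424 (rank 4118), windows of 30 and 32 reads came with 87 ChIP and 7 input reads, the fewest ChIP reads of any strong member. At 78411948 to 78411982 (rank 3337), windows of 36 and 38 reads came with 127 and 8 reads. The remaining 3 had ranks of 2314, 2315 and 2332 and between 111 and 146 ChIP reads.

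As a group, the 22 strong members had a median of 129 ChIP reads (87 to 282) and 6.5 input reads, against 82 and 5 in the other 199. Their pooled fold was 30.7 (26.1 to 36.4), against 24.95 (23.4 to 26.6) in those 199. These intervals overlap, and sites chosen for full ChIP windows favour more ChIP reads and a higher fold, so the values only describe them. Strong sites outside the stretch had 29.3-fold (27.7 to 30.9) and a median of 141 ChIP reads. The strong members were short, with a median length of 69.5 bp, and 19 of 22 were under 200 bp. They were also spread out, with a median distance of 105 kb between successive strong sites, and only the pair at 79989075 and 79989963 lay within 10 kb of each other. Some other peak lay within 10 kb of 15 of the 22 (68.2%), a share near the 65.6% of all 221 members, where 41.1% of all listed peaks had one.

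**Figure D4:**
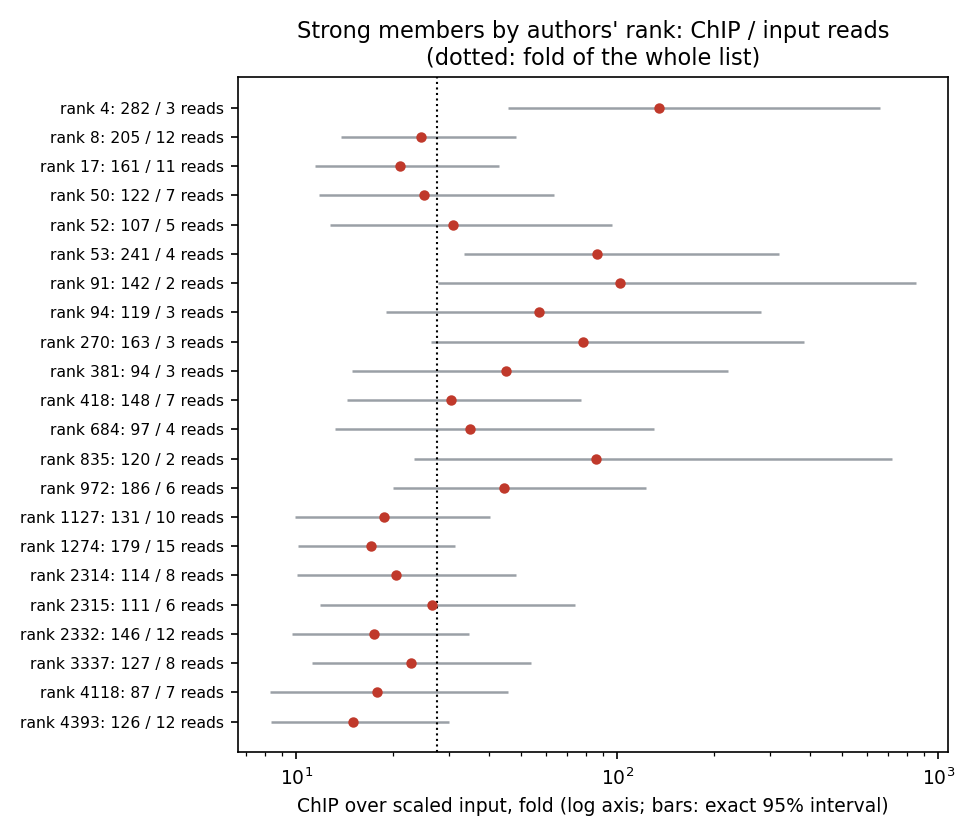
Fold of ChIP over scaled input (log axis, points) with exact 95% intervals (bars) for the 22 strong members, from the best authors' rank at the top to the worst, with ChIP and input reads at the left and the fold of the whole list, 27.4, dotted. Folds run from 135.0 at rank 4 to 15.1 at rank 4393, and the intervals of 19 of the 22 include the dotted line.

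Reads were balanced between strands. The forward strand carried 10653 and the reverse strand 10411 of the ChIP reads in the stretch, a forward share of 50.6% (49.9 to 51.3), against 50.04% (49.9 to 50.2) in the other peaks. Input reads were split 596 to 582, or 50.6% forward (47.7 to 53.5). The forward strand had more reads in 113 members, the reverse strand in 99, and both were equal in 9. Counts of the strands ran in parallel across members (Spearman's rho 0.89, n = 221), as elsewhere in the list (0.84).

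A share of forward reads whose exact interval lay above 50% was seen in 4 members, where 0.927% of all peaks showed it, and below 50% in 2 members, where 0.798% did. At 74555879 to 74556534, 115 forward reads faced 71 reverse reads (61.8%, 54.4 to 68.8), and at 76296326 to 76296367, 100 faced 65 (60.6%, 52.7 to 68.1). The rank 50 site at 73577358 had 74 and 48, and the peak at 78088395 to 78088424 had 47 and 27. Reverse reads led at 79669269 to 79669420 (29 forward, 52 reverse) and at 78992797 to 78992890 (37 and 59).

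Peak length in the stretch was close to that of the rest of the list. The median was 90 bp (95% interval 79 to 99) in members, 87 bp (80 to 95) in the rest of chromosome 15 and 83 bp (81 to 85) in all other peaks. A length of 200 bp or more was found in 42 members (19.0%, 14.1 to 24.8), in 20.8% (16.8 to 25.3) of the rest of chromosome 15 and in 15.2% (14.2 to 16.3) of all other peaks. These intervals take peaks as independent, which grouped peaks are not, so no test was made between the lengths. In 171 members (77.4%) the length equals the distance between the strand summits, so it does not measure the width of binding. Summits were inverted or coincided in 29 members (13.1%) and in 12.2% of other peaks. The 42 long members had a median of 116 ChIP and 6.5 input reads, against 81 and 5 in the 179 shorter ones. Their pooled folds were 26.003 (23.1 to 29.4) and 25.6 (23.9 to 27.4), so long members had more reads of both kinds and no higher fold. Outside the stretch, long peaks had a lower fold, 24.6 (23.8 to 25.4) against 28.3 (27.9 to 28.8) in shorter ones.

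Peaks of the stretch lay close together. The nearest other peak was a median of 5290 bp away (interquartile range 1443 to 14726), against 16337 bp for the other peaks of the list. Another peak within 10 kb was found for 145 members (65.6%), where 41.1% of all peaks had one. Within 1 kb the shares were 14.5% of members and 8.49% of other peaks. A stretch chosen for many peaks must have short distances, and the other dense stretches had them too. The nearest peak was a median of 6110.5 bp away on chromosome 15 from 80 Mb on, 6245 bp on chromosome 4 from 130 to 140 Mb and 5567 bp on chromosome 8 from 120 to 130 Mb. The share with a neighbour within 10 kb was 58.3%, 59.2% and 66.7% in these 3 stretches.

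**Figure D5:**
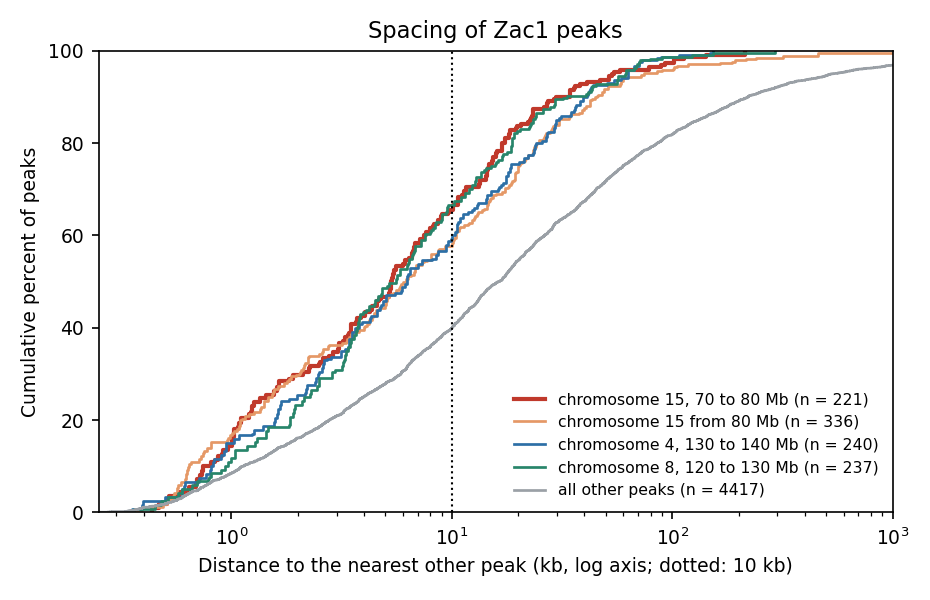
Cumulative percent of peaks (y axis) by distance to the nearest other peak in kb (log axis) for the stretch (red), 3 other dense stretches and all other peaks (grey); the dotted line marks 10 kb. At 10 kb the red curve stands at 65.6% and the 3 dense stretches at 58.3% to 66.7%, all above the grey curve at 39.9%.

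Joining midpoints at most 10 kb apart gave 43 runs of 2 or more peaks with 145 members and left 76 single peaks. There were 18 runs of 4 or more, with 86 members. Of these runs, 9 held a strong site, where 22 of all 221 members (9.95%) were strong. A run has several peaks that could be strong, so the 9 are no result about runs. Such runs were not counted in the rest of the list, so these numbers only describe the stretch. The longest run, 8 peaks from 78714135 to 78736273, held 833 ChIP reads against 29 input reads (41.3-fold, 28.5 to 62.0) and no strong site, although it includes the 209-read peak described above. A run of 6 at 76020645 to 76038077 had 632 and 53 reads (17.1-fold, 12.9 to 23.1), the most input reads per peak among the runs of 5 or more, 8.83. The other runs of 6 were at 78616563 to 78634931 (515 and 29 reads) and 78662805 to 78673471 (442 and 34). Runs of 5 lay at 76493183 to 76500223 (604 and 30), 78348311 to 78360200 (509 and 26), 78507384 to 78516580 (576 and 43) and 78804047 to 78819304 (663 and 29). The tightest run of 4 or more, 4 peaks over 3.24 kb at 79987257 to 79990493, holds the pair of strong sites 903 bp apart and had 398 and 32 reads. The other 9 runs of 4 had 240 to 564 ChIP reads and 10 to 43 input reads.

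Joined at 100 kb, 205 of the 221 members fell into 7 of the list's 120 domains of 8 or more peaks. How many peaks of the whole list lie in those 120 domains was not counted, so the 205 only describe the stretch. Another peak within 100 kb was found for 97.3% of members and 82.5% of all peaks. That share was 95.8% on chromosome 15 from 80 Mb on, 98.8% on chromosome 4 from 130 to 140 Mb and 98.7% on chromosome 8 from 120 to 130 Mb. The densest domain of the stretch ran from 78259803 to 79328673, 90 peaks over 1069 kb, and was the second largest of the whole list by peak number. It covers 10.7% of the stretch and held 40.7% of its peaks and 43.1% of its ChIP reads. Successive peaks were a median of 6648 bp apart, and no gap exceeded 58.1 kb. This gives 8.42 peaks per 100 kb, against 7.10 in the larger domain on chromosome 4 (99 peaks) and 8.53 in the next on chromosome 8 (72 peaks). Of the 120 domains of 8 or more peaks in the list, 11 were denser, among them one of 39 peaks on chromosome 5 with 10.9 per 100 kb.

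The 90 peaks of the densest domain were not individually far from the other 131. Their median was 90.5 ChIP reads (interquartile range 67.75 to 125, from 44 to 282), against 83 (63.5 to 107). Input reads averaged 5.72 and 5.06 per peak, and pooled folds were 25.3 (23.2 to 27.7) and 25.96 (24.0005 to 28.1). Strong sites made up 9 of 90 (10.0%, 4.68 to 18.1) inside and 13 of 131 (9.92%, 5.39 to 16.4) outside. These intervals overlap throughout, and the number of peaks is what defined the domain. Every one of its peaks had at least 1 input read.

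Strong sites were confined to the first 726.4 kb of that domain. They stood 88.5, 152.1, 209.6, 256.7, 356.8, 544.4, 554.7, 621.3 and 726.4 kb from its first peak, which had 97 ChIP and 7 input reads. In that order they had 119, 127, 87, 114, 131, 241, 148, 146 and 282 ChIP reads, against 3, 8, 7, 8, 10, 4, 7, 12 and 3 input reads. The ninth is the site at 78985907. The 22 peaks beyond it held no strong site, up to the last peak, at 79328512 to 79328673, with 201 ChIP and 9 input reads and windows of 28 and 26 reads. With so few strong sites, their absence from that end is a description only.

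The other domains of the stretch held fewer peaks, and fewer per 100 kb (3.99 to 6.06). Spacing was not wider in every one, since successive peaks of the 8-peak domain at 76493183 were a median of 3.67 kb apart. That from 75426334 to 76354535 had 37 peaks over 928.2 kb, 6 of them strong, with 3761 ChIP and 200 input reads (27.0-fold, 23.4 to 31.3). Of its strong sites, that at 76217622 to 76217943 had the highest fold, 78.1 (26.2 to 382.4), from 163 ChIP and 3 input reads. That at 76030933 to 76031005 had more ChIP reads, 179, but 15 input reads and the lowest fold of the 6, 17.1 (10.1 to 31.3). The domain from 77591806 to 78088424 had 20 peaks, 1 strong, with 1529 and 82 reads (26.8-fold, 21.4 to 33.9). The domain starting at 79546081 reaches across the limit to 80197783 and has 26 peaks in all, 2 of them strong, with 2515 and 165 reads (21.9-fold, 18.7 to 25.8). Smaller ones lay at 73454379 to 73685222 (14 peaks, 1356 and 72 reads) and at 74283386 to 74579723 (16 peaks, 1380 and 74 reads, no strong site). The last, at 76493183 to 76648334, had 8 peaks, 2 strong, with 877 and 48 reads. Folds of these 7 domains ran from 21.9 to 27.1, and their intervals overlap.

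The worst rank in the stretch belonged to the peak at 78634835 to 78634931 (rank 4658), with 48 ChIP and 6 input reads (11.5-fold, 4.91 to 32.9), at the end of a run of 6 in the densest domain. The fewest ChIP reads, 40 against 4 input reads, were at 74414935 to 74415005 (14.4-fold, 5.19 to 55.3). In the authors' deposited table all 221 members had a false discovery rate of 0 at 6 decimals. So did 4631 of all 4638 peaks (99.8%), so this says nothing about the stretch. The largest window log2 fold of the members ran from 3.39 to 6.25 with a median of 5.04, against 4.95 in the other peaks. By rank, the members included 2 of the 9 listed peaks with ranks up to 10, and the rest of chromosome 15 had 4 of them. The members also included 10 at ranks up to 100 and 33 at ranks up to 500. These are 4.52% and 14.9% of the members at ranks up to 100 and 500, against 1.97% and 10.4% of the other peaks and 4.59% and 13.8% in the rest of chromosome 15.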

How the data were processed

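The deposited peak table was analysed. Peaks were called with CisGenome, per the file headers. The build is mm9, per the submitters' processing notes. How reads were aligned and filtered, and how replicates were pooled, is not given in the sources used here. Per the file headers, the deposited values are whole-number read counts per region, strand and busiest window for ChIP and input, and in these names "pos" is the ChIP sample and "neg" the input, not a strand. Strand counts summed to the region count in 4638 of 4638 peaks. The authors' fold is a log2 value with a pseudocount of 1. It could be matched by whole-number windows in 100.0% of peaks with input multiplied by 0.696123 (84.1% without scaling, tolerance 2e-06). The deposited false discovery rate is p-value-like, and the authors' rank is a score. Ranks run to 4688, and 50 were not analysed here.

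Folds, exact (Clopper-Pearson) 95% intervals and medians were computed with Python 3.11.15, pandas 2.3.3 and SciPy 1.17.1, and the steps were tested on simulated data. Intervals of folds and of forward shares cover counting error only, since PCR duplicates (18 cycles from 10 ng DNA) cannot be recognised. Total library depth is unknown. Intervals of medians use order statistics. Those intervals and the intervals of shares of peaks take peaks as independent, although peaks lie in groups. Members, limits and comparisons were chosen with earlier results of these data known. Named regions are the 10 best ranked, the 10 with most ChIP reads, strong sites, extremes of input, edges, domain ends and runs of 4 or more peaks. The peaks lying wholly above or below the list's fold, the strand-unbalanced peaks and the weakest peaks were added after seeing values, and no genes were named. Figures were drawn with matplotlib 3.10.9.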

Additional observations from a re-analysis of the deposited data

How the results depend on the processing

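The pooled fold of 25.7 was 17.9 without scaling of the input and 31.2 among peaks in the better-ranked 50% of the list. It was 19.5 from the busiest ChIP windows over the busiest input windows, which need not lie at the same position. The fold stayed within its interval without the densest domain. The excess of 12 ChIP reads in the median over other peaks was 3 against the rest of chromosome 15. The excess of strong sites, 5.68 percentage points, was -0.23 at a minimum of 40 reads, where no member qualified, and -0.32 against the rest of chromosome 15. It kept its sign at minimums of 24 and 32 reads, after merging within 1 kb and without the densest domain. The median spacing of successive members, 11389 bp, was 24377 bp in the better-ranked 50% and 17507 bp without the densest domain, both of which leave fewer peaks. The share with a neighbour within 10 kb, 65.6%, was 46.6% within 5 kb, 83.7% within 20 kb and 97.3% within 100 kb, as the distance itself sets. The densest domain, 90 peaks, had 38 in the better-ranked 50%, 66 joined at 50 kb and 110 at 200 kb. The forward share did not move beyond its interval. No paired analysis was possible because replicates have no separate columns in the table, and for that reason none could be left out. Depth limits single peaks most, since input counts of 0 to 16 reads give wide intervals.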
